A study of Mus musculus with 10 samples.

Results

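Among the 35542 genes counted in the frontonasal prominence of mouse embryos, 9 encode core factors of H3K9 methylation and of TRIM28-directed silencing: Trim28, Setdb1, Ehmt1, Ehmt2, Suv39h1, Suv39h2, Daxx, Morc2a and Morc3. They were found by symbol in the count table, and all 9 were present in it. The frontonasal prominence, from which the forehead and nose develop, was dissected at E10.5 from embryos of the FVB/NJ strain for RNA sequencing. The study asked how a mutation of Smchd1, a chromatin protein that silences the inactive X and certain autosomal gene clusters, alters expression there.

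There were 4 MD1 libraries, labelled as 2 females and 2 males, and 6 WT libraries, labelled as 3 males and 3 females. MD1 embryos were Smchd1 MD1/MD1, homozygous for MommeD1, a nonsense allele recovered in an ENU mutagenesis screen, and WT embryos were Smchd1 WT/WT. Animals lacking Smchd1 are reported by the study to die as embryos when female and, depending on strain, to be less viable when male. The labels do not say whether embryos were pooled or how many contributed to a library, and the p-values therefore reflect only the variation among these samples, which may be technical. In bulk tissue of this kind, fewer cells of a type and less RNA per cell cannot be told apart.

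H3K9 methylation is the histone mark of compact, silent chromatin, and it is read by the HP1 proteins. TRIM28, also called KAP1, is a scaffold brought to retrotransposons and imprinted regions by KRAB zinc finger proteins, and it recruits the trimethylating enzyme SETDB1, HP1 and the NuRD deacetylase complex. EHMT2 (G9a) and EHMT1 (GLP) work as a heterodimer that places mono- and dimethylation in euchromatin, and SUV39H1 and SUV39H2 trimethylate H3K9 at pericentromeric repeats. DAXX is a chaperone that deposits histone H3.3 together with ATRX at repeats. MORC2A and MORC3 are ATPases of the same GHKL fold as SMCHD1: MORC2 acts with the HUSH complex and SETDB1, and MORC3 is a component of PML nuclear bodies. These pathways keep retrotransposons and germline genes silent in embryonic cells.

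Promoter sequences from RefSeq (GRCm38.p6) were matched to all 9 genes, and 3 of them are shown because Trim28 had the highest level of the group, Suv39h1 is its only X-linked gene and Morc3 was the only one above WT in the MD1 library that stood furthest apart. Each runs 5′ to 3′ over 300 bases, from 250 before the annotated start to 50 after it, at chr7:13023902-13024201 on the plus strand, chrX:8074711-8075010 on the minus strand and chr16:93831871-93832170 on the plus strand of that build. Capitals mark GC boxes, the letters GGGCGG read on either strand.
Trim28: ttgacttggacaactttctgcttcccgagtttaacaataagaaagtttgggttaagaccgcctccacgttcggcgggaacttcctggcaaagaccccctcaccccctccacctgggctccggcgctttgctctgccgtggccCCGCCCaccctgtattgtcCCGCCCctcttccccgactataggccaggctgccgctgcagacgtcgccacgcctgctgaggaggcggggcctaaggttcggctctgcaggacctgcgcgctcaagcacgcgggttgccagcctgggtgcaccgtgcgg
Suv39h1: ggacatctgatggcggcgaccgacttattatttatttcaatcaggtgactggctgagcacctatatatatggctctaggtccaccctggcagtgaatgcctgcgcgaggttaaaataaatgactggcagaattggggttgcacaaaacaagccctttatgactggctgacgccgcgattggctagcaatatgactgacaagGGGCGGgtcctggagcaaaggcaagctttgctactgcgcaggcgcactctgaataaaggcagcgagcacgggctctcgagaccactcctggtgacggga
Morc3: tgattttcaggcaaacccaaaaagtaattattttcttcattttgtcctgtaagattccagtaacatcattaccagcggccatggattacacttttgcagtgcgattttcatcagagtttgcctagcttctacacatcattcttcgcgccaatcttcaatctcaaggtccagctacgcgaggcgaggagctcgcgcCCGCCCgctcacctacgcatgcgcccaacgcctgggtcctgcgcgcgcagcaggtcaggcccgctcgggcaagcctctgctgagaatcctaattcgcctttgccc
All 9 promoters held at least 1 GC box, a motif found in 35.66% of the 32851 promoters of the same length in the table. The number of CpG dinucleotides ranged between 15 (Setdb1 and Suv39h1) and 46 (Morc2a), with a median of 7 over all promoters. The letters ACGTG, the core of the hypoxia response element, were found on either strand in 2 of the 9 (Trim28 and Ehmt2), against 19.62% of all promoters. A further motif searched on both strands, TTTCGCGC, an E2F site, was in 0 of the 9 and in 0.3227% of all promoters. None of the 3 motifs contains another, and a match describes letters in the window only.

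The genes lie on 7 chromosomes, and the table's coordinates (GRCm38) were those of the GENCODE annotation for all 9. Trim28 (ENSMUSG00000005566) lies at chr7:12999114-13031035, a range that begins upstream of its RefSeq start, with 11 merged exon blocks, Setdb1 (ENSMUSG00000015697) at chr3:95323525-95357202 with 21, Ehmt1 (ENSMUSG00000036893) at chr2:24789928-24919614 with 30 and Ehmt2 (ENSMUSG00000013787) at chr17:34898469-34914052 with 24. Suv39h1 (ENSMUSG00000039231) lies at chrX:8061171-8074760 and Suv39h2 (ENSMUSG00000026646) at chr2:3455815-3475031, each with 7 blocks. Daxx (ENSMUSG00000002307) lies at chr17:33909414-33915590 with 9 blocks, Morc2a (ENSMUSG00000034543) at chr11:3649191-3690477 with 25 and Morc3 (ENSMUSG00000039456) at chr16:93832121-93876073 with 16.

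Library totals ranged between 4195119 counts in MD1 male replicate 3 and 24125084 in WT male replicate 3. Smchd1 had 55.3, 99.9, 67.2 and 91.9 CPM (counts per 1000000 of the TMM-scaled library) in MD1, against 229 to 265 CPM in WT, so every MD1 library lay below every WT library (log2 fold change -1.65, SE 0.15, edgeR adjusted p = 0.000746). The library labelled MD1 female replicate 1 held Y-linked reads (Ddx3y 88.2 CPM) and 204 CPM of Xist, whereas MD1 female replicate 4 held 0 CPM of Ddx3y and 6724 CPM of Xist, which goes against the label of the first. On principal components of log2 CPM, MD1 female replicate 4 stood apart on the first (37.3% of variance) and MD1 male replicate 3 on the second (23.8%). Frontonasal markers were present in all libraries, and their summed level over 11 of 11 genes (Alx1, Pax7 and others) ranged between 1134 and 1577 CPM in MD1 and between 1390 and 1784 CPM in WT, lowest in MD1 female replicate 4. Values below are given in MD1 in the order of the library labelled female replicate 1, male replicate 2, male replicate 3 and female replicate 4.

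Across all 9 genes, MD1 and WT levels in CPM overlapped and no gene passed the test. On autosomes, where 12 of 15452 genes tested (0.0777%) had an edgeR adjusted p at most 0.05, 0 of the 8 autosomal genes did. At an unadjusted p under 0.05 there were 2 of 8 (Ehmt2 and Daxx), against 9.79% of all autosomal genes tested. Both lie on chromosome 17, as does the mutated gene Smchd1 (chr17:71344489-71475343), and the part of that position was not tested. The log2 fold change was below 0 in 6 of 8, against 49.5% of all autosomal genes. By CPM, none of the 8 had all MD1 libraries below all WT libraries (1.06% of autosomal genes) or above them (0.99%). DESeq2, limma-voom, the edgeR exact test and limma on the deposited log2 RPKM also called 0 of the 8. Suv39h1 is X-linked and was read from the fit over all chromosomes, in which 0.0688% of 15982 genes passed, and it did not.

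**Figure D1:**
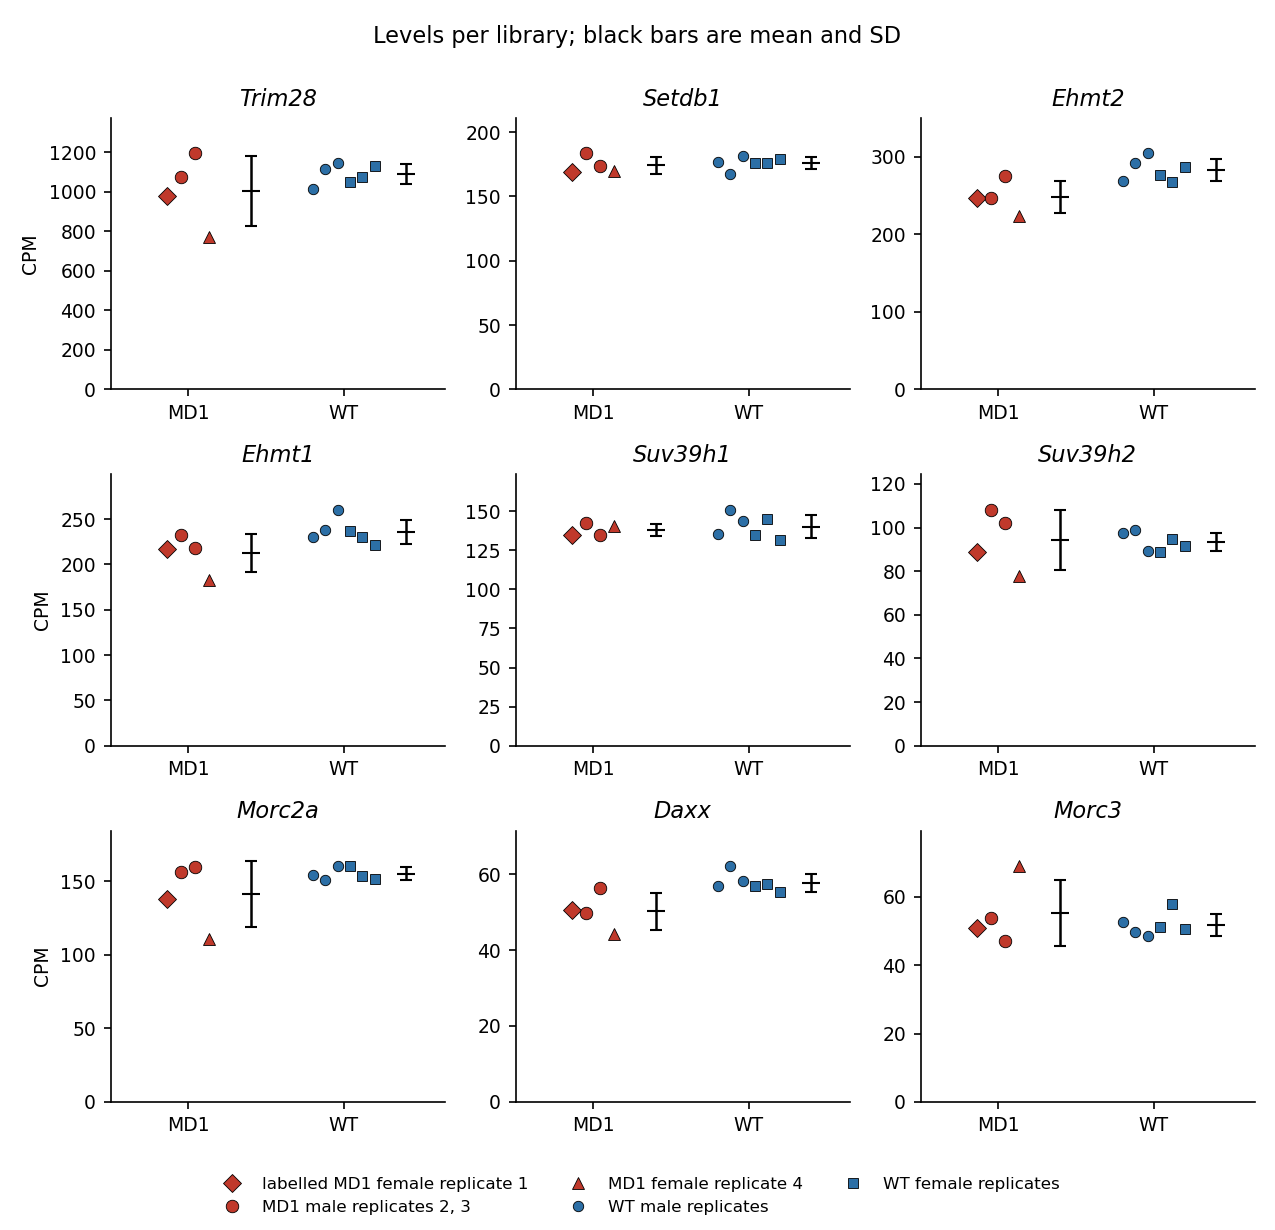
CPM of the 9 genes in each of the 4 MD1 libraries (left) and 6 WT libraries (right) of each panel, on a linear axis from 0, with black bars for the mean and SD. Setdb1 and Suv39h1 show narrow spreads in both genotypes, and MD1 female replicate 4 is the lowest point for 6 genes and the highest for Morc3.

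Trim28, the scaffold, was the most abundant of the group. It had 976, 1073, 1193 and 770 CPM in MD1, and a lowest value of 1013, a median of 1094 and a highest value of 1146 CPM in WT. MD1 female replicate 4 and the library labelled MD1 female replicate 1 lay below all WT libraries, MD1 male replicate 3 lay above all of them, and MD1 male replicate 2 lay among them. The means were 1003 ± 179 CPM in MD1 (SD, n = 4) and 1087 ± 51.1 CPM in WT (SD, n = 6). The log2 fold change was -0.12 (SE 0.10, 95% interval -0.34 to 0.11, edgeR adjusted p = 0.672), and without MD1 female replicate 4 it was -0.01. The range of Trim28 also spans Zbtb45 on the opposite strand, with which it shares 0 exonic bases.

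Setdb1, the trimethylating partner, varied little. MD1 libraries had 169, 183, 174 and 170 CPM, against a lowest value of 168, a median of 177 and a highest value of 181 CPM in WT. Only MD1 male replicate 2 lay outside the WT range in CPM, just above it. In deposited log2 RPKM, Setdb1 lay inside the range in that library and below it in MD1 female replicate 4 (4.21, lowest WT value 4.48). Its log2 fold change was -0.02 (SE 0.06, 95% interval -0.14 to 0.11, edgeR adjusted p = 0.927), so the interval covers changes between -9.46% and 7.92%. Over the 10 libraries its log2 CPM had an SD of 0.04, and 0.0438% of all genes tested had a smaller SD. Cers2 and the unnamed transcript Gm37500 overlap 1.094% and 3.633% of its exonic bases on the other strand. Gm37500 had at most 8 counts in any library.

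For Ehmt2, encoding G9a, the 3 lowest libraries were MD1. Its levels were 247, 247, 275 and 224 CPM in MD1, and a lowest value of 268, a median of 282 and a highest value of 304 CPM in WT. The library labelled MD1 female replicate 1, MD1 male replicate 2 and MD1 female replicate 4 lay below every WT library, and MD1 male replicate 3 lay within the WT range. Means were 248 ± 20.8 CPM in MD1 (SD, n = 4) and 283 ± 14.3 CPM in WT (SD, n = 6), a log2 fold change of -0.19 (SE 0.07, 95% interval -0.35 to -0.03, edgeR unadjusted p = 0.0224, adjusted p = 0.496). The difference was -0.14 without MD1 female replicate 4, and -0.20 without both that library and MD1 male replicate 3, a fit chosen after seeing the data.

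Ehmt1, encoding the partner GLP, had 217, 232, 218 and 183 CPM in MD1, and a lowest value of 222, a median of 234 and a highest value of 260 CPM in WT. Again 3 MD1 libraries lay below every WT library, here those other than MD1 male replicate 2. In edgeR the log2 fold change was -0.15 (SE 0.08, 95% interval -0.32 to 0.02, edgeR adjusted p = 0.518), and -0.08 without MD1 female replicate 4. The log2 ratio of Ehmt1 to Ehmt2 within a library, in which depth cancels, averaged -0.23 in MD1 and -0.26 in WT. The ratio differed by 0.03 between genotypes (exact two-sided permutation test over 210 splits, p = 0.552, adjusted p = 0.829 over 3 ratios). The smallest p this test can give is 0.00476.

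Suv39h1, the X-linked pericentromeric enzyme, had 135, 142, 135 and 140 CPM in MD1, and a lowest value of 131, a median of 139 and a highest value of 151 CPM in WT. All 4 MD1 libraries lay inside the WT range in CPM. In deposited log2 RPKM, MD1 female replicate 4 lay below it, at 4.31 against a lowest WT value of 4.50. MD1 differed from WT by a log2 fold change of -0.02 (SE 0.06, 95% interval -0.16 to 0.12, edgeR adjusted p = 0.914 over all chromosomes). MD1 against WT was -0.05 within labelled males and 0.01 within labelled females, who include the MD1 library that held Y-linked reads. WT females differed from WT males by -0.07 (SE 0.08, edgeR adjusted p = 0.9998). That contrast called 0 of 15982 genes, not even Xist (2594 to 2695 CPM in WT females, at most 2.08 CPM in WT males). Its adjusted p therefore cannot show an equal level in the sexes. MD1 female replicate 4, with the highest Xist level, had 100.09% of the mean WT level of Suv39h1. An antisense gene, Gm14820, shares 14.55% of its exonic bases, and since no source used here says whether counting used strand, reads there cannot be told apart.

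Suv39h2, its autosomal paralogue, had 88.7, 108, 102 and 78.0 CPM in MD1, and a lowest value of 89.0, a median of 93.3 and a highest value of 98.7 CPM in WT. Both MD1 males lay above every WT library and both libraries labelled MD1 female lay below in CPM. In deposited log2 RPKM the library labelled MD1 female replicate 1 was inside the WT range, at 4.189 against a lowest WT value of 4.183. The mean log2 fold change was 0.01 (SE 0.09, 95% interval -0.19 to 0.21, edgeR adjusted p = 0.975), a sign that turned under other settings. By the labels, the difference between the male and the female effect was 0.29 (SE 0.15, edgeR adjusted p = 0.485). The MD1 library that held Y-linked reads was counted there as female. The log2 ratio of Suv39h1 to Suv39h2 was 0.56 in MD1 and 0.58 in WT (difference -0.02, exact two-sided permutation test, p = 0.833, adjusted p = 0.833). Dclre1c on the opposite strand overlaps 8.095% of the exonic bases of Suv39h2, and Gm13184 1.882% with at most 9 counts.

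Daxx, the H3.3 chaperone, had 50.5, 49.7, 56.3 and 44.3 CPM in MD1, and a lowest value of 55.2, a median of 57.1 and a highest value of 62.2 CPM in WT. Every MD1 library except male replicate 3, which was within the WT range, lay below all WT libraries in CPM. In deposited log2 RPKM male replicate 3 was at 3.980 and the lowest WT library at 3.988. The means were 50.2 ± 4.90 CPM in MD1 (SD, n = 4) and 57.8 ± 2.37 CPM in WT (SD, n = 6), so that MD1 averaged 86.9% of WT, the lowest share of the 9. This gave a log2 fold change of -0.21 (SE 0.08, 95% interval -0.38 to -0.03, edgeR unadjusted p = 0.0246, adjusted p = 0.496), and it was -0.15 without MD1 female replicate 4. It remained below 0 under all 21 other settings, as did those of Ehmt2 and Ehmt1, with adjusted p at least 0.256 for Daxx.

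Morc2a, which acts with HUSH, had 138, 156, 160 and 111 CPM in MD1, and a lowest value of 151, a median of 154 and a highest value of 160 CPM in WT. Both libraries labelled MD1 female lay below all WT libraries and both MD1 males lay within them. Between genotypes the log2 fold change was -0.14 (SE 0.09, 95% interval -0.34 to 0.07, edgeR adjusted p = 0.592), and -0.04 without MD1 female replicate 4. Tug1, an antisense long noncoding RNA with 1203 to 7500 counts per library, shares 7.521% of the exonic bases, at the start of Morc2a. Its own log2 fold change was -0.04 (SE 0.10, edgeR adjusted p = 0.894).

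Morc3, the PML body ATPase and the least abundant of the group per transcript length, had 51.0, 53.7, 47.1 and 69.0 CPM in MD1, and a lowest value of 48.6, a median of 50.8 and a highest value of 57.8 CPM in WT. MD1 female replicate 4 lay above every other library and MD1 male replicate 3 below every WT library in CPM. In deposited log2 RPKM, Morc3 was at 3.242 in MD1 female replicate 4, below WT female replicate 5 at 3.247. Its log2 fold change was 0.10 (SE 0.11, 95% interval -0.13 to 0.33, edgeR adjusted p = 0.721), and -0.02 without MD1 female replicate 4. Its antisense neighbour Gm30881 had 0 counts in all libraries.

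**Figure D2:**
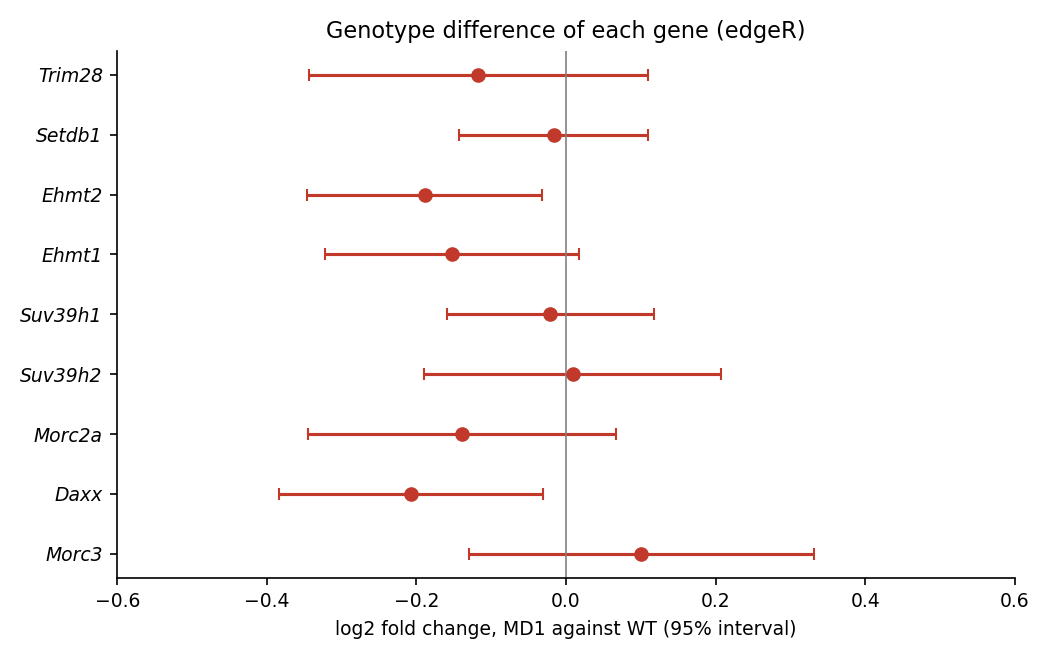
Log2 fold change of each gene, MD1 against WT, from edgeR, with 95% intervals as horizontal bars and a line at 0. The intervals of Ehmt2 (-0.35 to -0.03) and Daxx (-0.38 to -0.03) lie below 0 before adjustment over genes, and the other 7 include 0.

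Levels between genes were compared per transcript length, on the authors' log2 RPKM scale (reads scaled by depth and per kilobase). Trim28 led in MD1 at 7.67 ± 0.39 and in WT at 7.88 ± 0.08 (SD, n = 4 and n = 6), followed by Ehmt2 at 5.27 ± 0.24 in MD1 and 5.54 ± 0.09 in WT. Neither overlapped its neighbour in the order in any library. Then came Suv39h1 (4.49 in MD1, 4.58 in WT), Ehmt1 (4.48 in MD1, 4.71 in WT), Setdb1 (4.44 in MD1, 4.54 in WT) and Morc2a (4.22 in MD1, 4.45 in WT), whose ranges overlapped between neighbours in the order of each genotype. In WT that order was Ehmt1, Suv39h1, Setdb1 and Morc2a. Ehmt1 stood above Suv39h1 in all 6 WT libraries and below it by 0.0057 on average in MD1, where it was lower in MD1 female replicate 4 alone. Suv39h2 (4.18 in MD1, 4.26 in WT) overlapped Morc2a above it and Daxx below it (3.76 in MD1, 4.05 in WT) in MD1 and not in WT. Morc3 was last at 3.10 in both genotypes, apart from Daxx in every library.

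Per length, Trim28 exceeded its partner Setdb1 9.38-fold in MD1 and 10.2-fold in WT. The log2 ratio of Setdb1 to Trim28 was -2.53, -2.55, -2.78 and -2.18 in MD1 and between -2.74 and -2.52 in WT on the CPM scale, so only the last 2 MD1 libraries fell outside the WT range, 1 on each side. The genotype difference of that ratio was 0.12 (exact two-sided permutation test, p = 0.329, adjusted p = 0.829). Ehmt2 exceeded Ehmt1 1.73-fold in MD1 and 1.77-fold in WT, and Suv39h1 exceeded Suv39h2 1.24-fold in MD1 and 1.25-fold in WT. The deposited log2 RPKM differed between genotypes by -0.10 at the median autosomal gene, and relative to that shift the 9 genes differed by between -0.19 (Daxx) and 0.10 (Morc3).

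**Figure D3:**
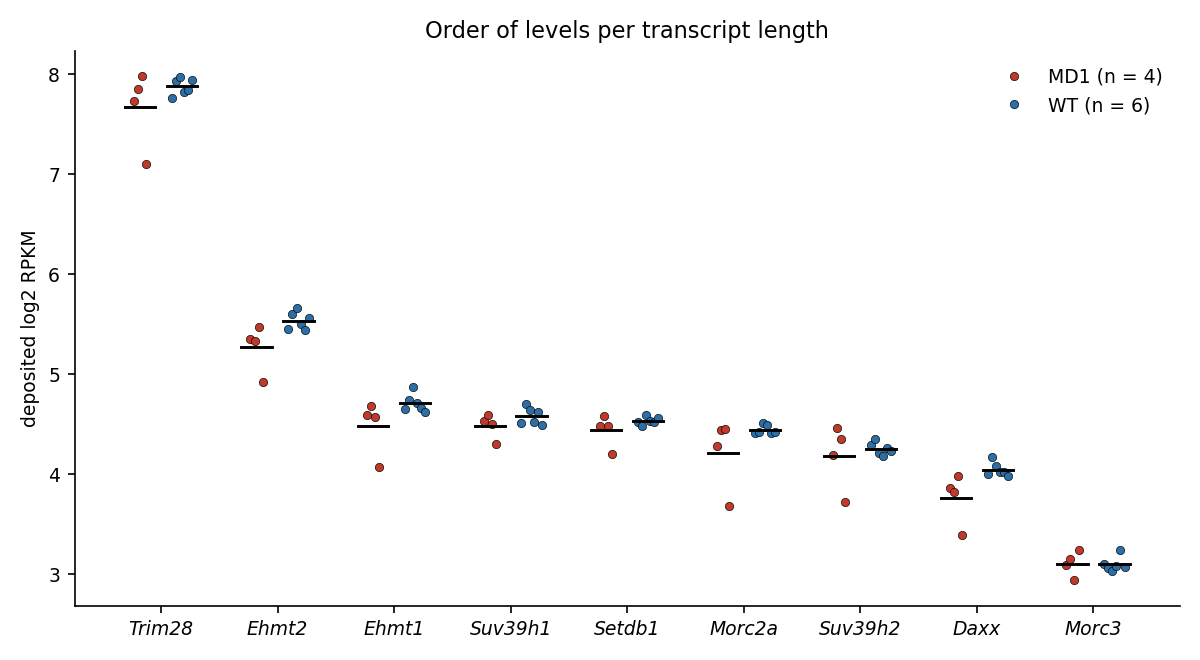
Deposited log2 RPKM of the 9 genes in MD1 and WT libraries, points for libraries and horizontal lines for the means, ordered by the level in WT. Trim28 and Ehmt2 stand above the rest in both genotypes, Suv39h1, Ehmt1, Setdb1 and Morc2a lie close together, and Morc3 is lowest at 3.10.

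The 4 MD1 libraries were not alike. In CPM, MD1 female replicate 4 was the lowest of the 10 libraries for 6 of the 9 genes, against 29.8% of all genes tested. It was the highest for 1, Morc3, against 31.7%. As a percentage of the WT mean it had 70.8% of Trim28, 71.4% of Morc2a, 76.7% of Daxx, 77.6% of Ehmt1, 79.3% of Ehmt2 and 83.4% of Suv39h2. It had 96.6% of Setdb1 and 134% of Morc3, and it lay below every WT library for 6 of the 9, against 35.2% of all genes tested. Such shifts were common in that library: 22.0% of all genes tested lay at or below the log2 ratio of Trim28. The library labelled MD1 female replicate 1 lay below every WT library for 6 of the 9 genes too, against 14.6% of all genes tested, but by less (87.3% of WT for Ehmt2, 88.9% for Morc2a and 89.8% for Trim28). MD1 male replicate 2 lay below every WT library for 2 of 9 (21.4% of all genes) and MD1 male replicate 3 for 2 of 9 (27.1% of all genes).

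**Figure D4:**
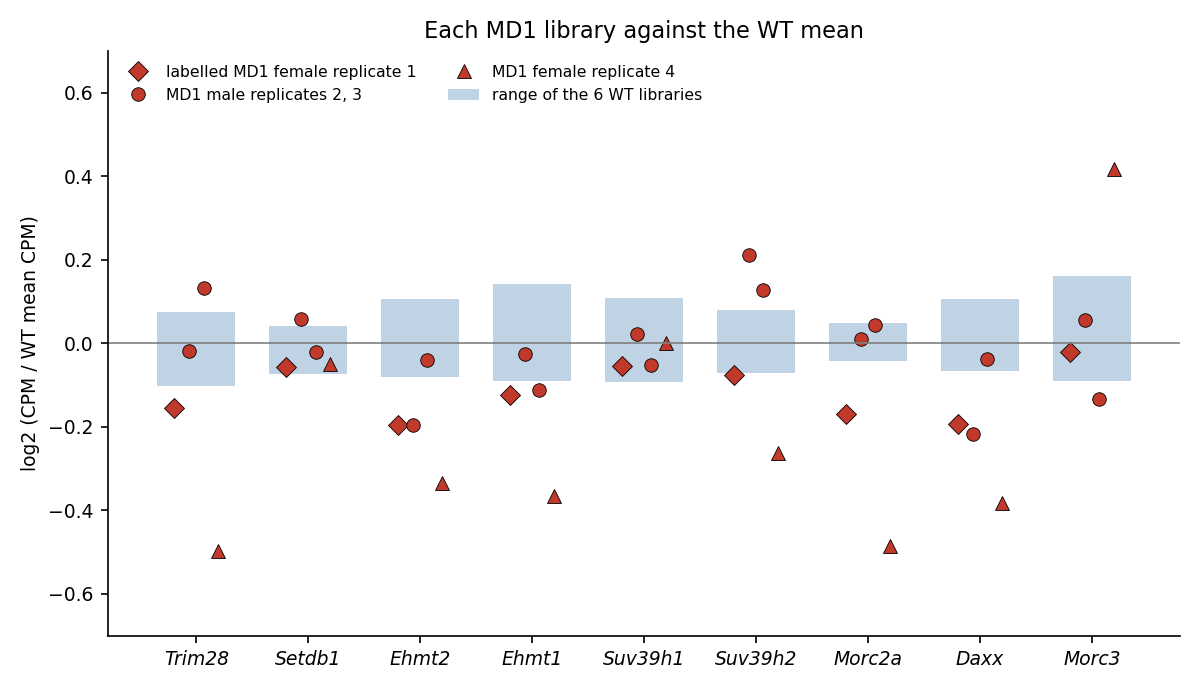
Log2 ratio of each MD1 library to the WT mean for the 9 genes, with shaded boxes for the range of the 6 WT libraries. MD1 female replicate 4 lies lowest for 6 genes, at 70.8% of the WT mean for Trim28, and highest for Morc3 at 134%.

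Marker genes of other states differed between libraries, and not all were furthest from WT in MD1 female replicate 4. The summed level of 12 of 12 hypoxia response genes was 2541, 1404, 1996 and 10987 CPM in MD1 and 1086 to 2453 CPM in WT, and their mean log2 level was 3.74 above WT in MD1 female replicate 4 and 1.29 above it in the one labelled MD1 female replicate 1, against 1.35 in WT male replicate 1. Summed erythroid markers, 10 of 10 genes, were 20294 CPM in MD1 female replicate 4, against 2619 to 4244 CPM in the other MD1 libraries and 2996 to 4326 CPM in WT. Yolk sac and liver markers, summed over 7 of 7 genes although only Afp and Apob passed the filter on low counts, reached 339 CPM in the one labelled MD1 female replicate 1 and 88.9 CPM in MD1 female replicate 4, against at most 0.598 CPM in the MD1 males and at most 27.5 CPM in WT, and Apoa2 was at 0 in all WT libraries and both MD1 males. Endothelial markers summed to 348 to 615 CPM in MD1 and 332 to 428 CPM in WT, and macrophage markers to 27.8 to 36.0 CPM in MD1 and 32.4 to 41.8 CPM in WT, over 7 of 7 genes each. The part of these lists in the levels of the 9 genes was not tested.

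Within each labelled sex, no gene of the group passed in the fit with all libraries. The MD1 females of that fit join the library that held Y-linked reads with MD1 female replicate 4. No fit counted the former with the males. Within males 0 of 9 were called by edgeR (0.0188% of all genes tested) and 0 of 9 had an unadjusted p under 0.05 (3.8%). Within females 0 of 9 were called (0.00626%), and 3 had an unadjusted p under 0.05 (19.1%): Morc2a at -0.32 (SE 0.11, edgeR adjusted p = 0.186), Trim28 at -0.31 (SE 0.12, edgeR adjusted p = 0.208) and Ehmt2 at -0.23 (SE 0.10, edgeR adjusted p = 0.238). In males the same genes were at 0.03, 0.05 and -0.15. The male effect minus the female effect was 0.35 for Morc2a (edgeR adjusted p = 0.479) and 0.36 for Trim28 (edgeR adjusted p = 0.480). For that difference 0 of 9 were called by edgeR (0% of all genes) and these 2 had an unadjusted p under 0.05 (10.4% of all genes). Since the library labelled MD1 female replicate 1 held Y-linked reads, these contrasts were also fitted without it, which left MD1 female replicate 4 alone against 3 WT females, with its spread assumed to be that of the other groups. Then 4 of 9 genes were called by edgeR, against 33.8% of all genes tested: Trim28 at -0.50 (adjusted p = 0.00478), Morc2a at -0.49 (adjusted p = 0.00348), Ehmt1 at -0.33 (adjusted p = 0.0349) and Morc3 at 0.38 (adjusted p = 0.0433). The difference between sexes was then called for Trim28 at 0.55 and Morc2a at 0.52 (edgeR adjusted p = 0.0140 and 0.0136), against 22.6% of all genes. These calls compare 1 library, the one with the hypoxia and erythroid levels above, with WT females. Between WT females and WT males 0 of 9 were called by edgeR, against 0% of all genes, and 0 of 9 had an unadjusted p under 0.05, against 1.31%. Xist, at 2594 to 2695 CPM in WT females and at most 2.08 CPM in WT males, was not called either. That contrast therefore cannot show that the sexes are alike.

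Beyond the 9, 10 lists held 69 further genes of the same pathways, of which 56 passed the filter on low counts. In the fit over all chromosomes 0 of 56 were called by edgeR, 5 had an unadjusted p under 0.05 (9.85% of all genes), 29 were higher and 27 lower in MD1, and their median log2 fold change was 0.006, against 0.005 over all genes tested. The 3 tested HP1 genes had a median of 0.00057. Cbx5 and Cbx1, encoding HP1 alpha and beta, were at 0.001 and -0.02, and Cbx3, encoding HP1 gamma, was at 0.38 (SE 0.10, edgeR adjusted p = 0.492) with 29.5, 36.1, 40.8 and 39.5 CPM in MD1 and 25.2 to 29.7 CPM in WT. The first MD1 library lay inside the WT range and the other 3 above it. Cbx3 has processed pseudogenes that could share its reads, so its level is uncertain, as are those of Hdac1 and Sumo2.

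The HUSH and SETDB1 cofactors had 0 of 5 called, with a median of -0.06 and extremes of -0.16 (Pphln1) and 0.13 (Tasor), both HUSH subunits. Pphln1 had 96.0, 127, 116 and 64.9 CPM in MD1 and 99.4 to 120 CPM in WT, lowest in MD1 female replicate 4 and on both sides of the WT range. The partners of G9a and GLP had 0 of 5 called and a median of 0.01, between -0.10 (Zfp644) and 0.14 (Cdyl, a chromodomain corepressor). For Zfp644 (116 to 134 CPM in WT), MD1 female replicate 4 lay below the WT range at 77.0 CPM and MD1 male replicate 2 above it at 150 CPM. For Cdyl only MD1 female replicate 4 left the WT range, above it (50.9 CPM, against 31.5 to 39.1 CPM in WT). The KRAB zinc finger proteins and TRIM28 paralogues had 0 of 9 called, 8 of 9 above 0 and a median of 0.10. Zfp568, a repressor of the placental Igf2 transcript, was lowest at -0.15, with 124, 156, 163 and 72.8 CPM in MD1 and 129 to 154 CPM in WT, so that both MD1 males lay above the WT range. Trim66 was highest at 1.30 (SE 0.89, edgeR adjusted p = 0.594) with 1.93 CPM on average in WT. The NuRD complex had 0 of 10 called and a median of -0.06, between -0.17 (Mta2) and 0.21 (Mbd2, the methyl-CpG reader). Mta2 had 275, 297, 305 and 217 CPM in MD1 and 292 to 316 CPM in WT. Mbd2 had 36.7, 35.8, 35.5 and 45.6 CPM in MD1 and 29.2 to 35.3 CPM in WT. Every MD1 library thus lay above every WT library for Mbd2, as for 0.99% of autosomal genes.

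The DAXX partners and PML body genes had 0 of 8 called and a median of 0.04, with Pml lowest at -0.19 and H3f3b, encoding the H3.3 that DAXX deposits, highest at 0.42 (SE 0.22, edgeR adjusted p = 0.516). H3f3b had 547, 597, 551 and 1301 CPM in MD1 and 488 to 632 CPM in WT, so only MD1 female replicate 4 left the WT range. Atrx, the X-linked partner of DAXX, was named after its values were seen, with 522, 545, 501 and 729 CPM in MD1 and 432 to 532 CPM in WT (log2 fold change 0.31, SE 0.11, edgeR unadjusted p = 0.014, adjusted p = 0.492). MD1 male replicate 2 and MD1 female replicate 4 lay above all WT libraries. Morc4 was at 0.29 (SE 0.16, edgeR adjusted p = 0.537), and Morc1 and Morc2b had 0 counts in every library. All 4 other H3K9 methyltransferases were below 0 and 0 of 4 were called, with a median of -0.19, between -0.27 (Prdm16, a regulator of craniofacial development) and -0.09 (Mecom). Their mean log2 level relative to WT was -0.06, -0.04, -0.07 and -0.62 in the MD1 libraries and -0.13 to 0.13 in WT, so only MD1 female replicate 4 lay below the WT range.

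The H3K9 demethylases remove the mark. Of 10 tested, 0 were called, and 3 had an unadjusted p under 0.05 in edgeR, against 9.85% of all genes tested. Of the 10, 6 were higher and 4 lower, and the median was 0.23. Kdm3a, a hypoxia-inducible demethylase, had 212, 156, 162 and 874 CPM in MD1 and 147 to 247 CPM in WT (log2 fold change 1.08, SE 0.43, edgeR unadjusted p = 0.026, adjusted p = 0.493). Phf2 was lowest at -0.26 (SE 0.11, edgeR adjusted p = 0.496), with 92.8, 99.8, 75.9 and 68.7 CPM in MD1 and 86.3 to 108 CPM in WT. For Kdm3a MD1 female replicate 4 alone left the WT range, and for Phf2 that library and MD1 male replicate 3 lay below it. The next genes were named after their values were seen. Kdm7a had 123, 98.2, 91.8 and 388 CPM in MD1 and 80.5 to 157 CPM in WT, Kdm4c had 25.2, 18.7, 17.9 and 66.7 CPM in MD1 and 21.4 to 24.9 CPM in WT, and Kdm4b had 89.6, 64.9, 70.6 and 175 CPM in MD1 and 67.5 to 94.5 CPM in WT. In each of these MD1 female replicate 4, the library with the highest hypoxia genes, was the highest of all, and the part of those genes in these levels was not tested.

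**Figure D5:**
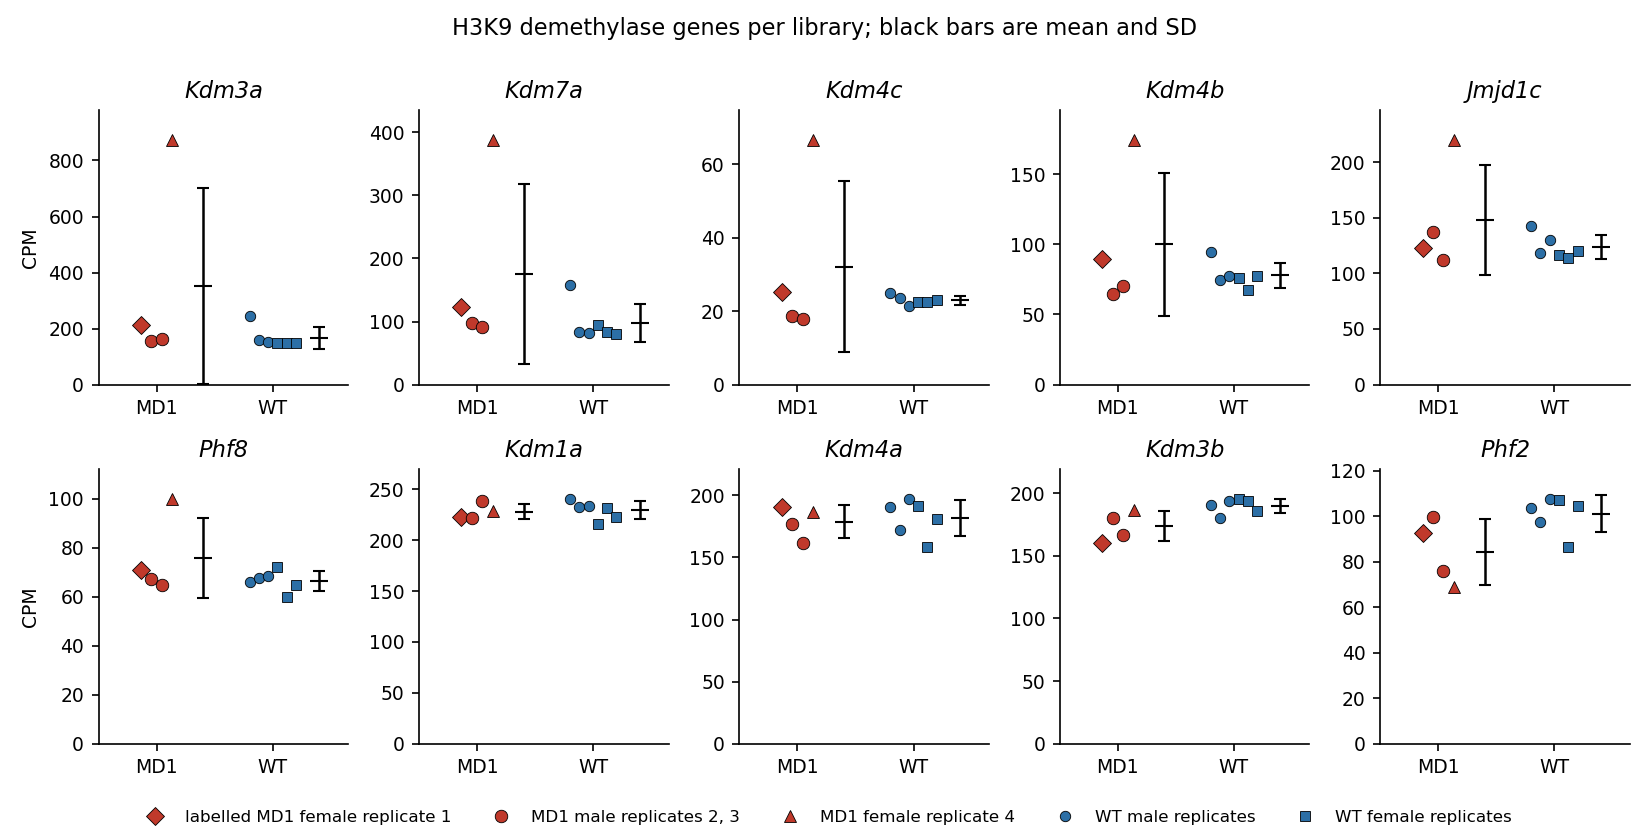
CPM of H3K9 demethylase genes in the 4 MD1 libraries (left) and the 6 WT libraries (right) of each panel, with black bars for mean and SD on axes from 0. MD1 female replicate 4 is highest for Kdm3a (874 CPM) and Kdm7a (388 CPM), and the other MD1 libraries lie within the WT range for both.

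Genes silenced through H3K9 methylation in other cells, mostly germline genes, stayed at or near 0. Of 10 such genes 9 did not pass the filter, with at most 0.30 CPM in any MD1 library and at most 0.28 CPM in any WT library. Sycp3, a synaptonemal complex gene, had 1.95, 1.70, 0.483 and 1.29 CPM in MD1 and 1.60 to 2.29 CPM in WT (log2 fold change -0.29, SE 0.30, edgeR adjusted p = 0.711). At this depth no rise of these genes was detectable in MD1.

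For each of the 9 genes, the gene with the most similar profile was taken by Pearson r of log2 CPM over the 10 libraries, which share library preparation and the outlying MD1 libraries. It was Plxna1 for Trim28 (r = 0.990, and 0.956 without MD1 female replicate 4), Gphn for Morc3 (0.988 and 0.952), Cdc23 for Morc2a (0.983 and 0.888), Zbtb12 for Daxx (0.980 and 0.958), Map3k3 for Ehmt1 (0.978 and 0.939) and Tcf3 for Ehmt2 (0.976 and 0.962). Guk1 was nearest to Suv39h2 (0.960 and 0.955), Smim1 to Suv39h1 (0.922 and 0.926) and Acyp2 to Setdb1 (0.891 and 0.892). The lowest values were those of the 2 genes with the narrowest spread. Each r is the highest over all genes tested, so the choice itself makes it high, and no level by chance was computed. Values without MD1 female replicate 4 are for the gene chosen with it.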

How the data were processed

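RNA was sequenced from 10 frontonasal prominence libraries, 4 MD1 and 6 WT, with groups and replicate numbers taken from the labels. According to the study's methods and the submitters' processing notes, Trim Galore 0.4.4 served for trimming, HISAT2 2.0.5 for alignment to GRCm38.p6 and SeqMonk 1.47.2 for quantification, and bcl2fastq is also named. The authors deposited raw counts of reads for every gene. They also deposited log2 RPKM, scaled by library size and corrected for length of the transcript in SeqMonk. Deposited columns of genotype means were used in no test. The labels name the TruSeq RNA v2 kit, which does not mark strand, the study's methods name a stranded kit as well without assigning it to these libraries, and whether counting used strand was not given in the sources consulted. Whole-number counts differ in their sum between libraries, from 4195119 to 24125084, and the shallow libraries give the less precise levels.

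The table held 35591 entries. In 27 a date stood in place of the symbol, which was restored from the identifier, and 49 repeated an identifier, of which the entry with more reads was kept, leaving 35542 genes. The 13 mitochondrial genes had 0 reads. No pair of the 45 library pairs agreed within sampling noise (lowest chi-square per degree of freedom 4.145).

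Genotypes were compared on the deposited counts in R 4.3.3 with edgeR 4.0.16 and its quasi-likelihood test, after filterByExpr and TMM, with Benjamini-Hochberg adjustment over all genes tested and a threshold of 0.05. Sex chromosomes were left out of the autosomal fit, as in the study, and Suv39h1 was read from a fit over all chromosomes. Effects within each labelled sex, their difference and WT females minus WT males came from 1 model with a mean per group. Partner ratios of log2 CPM (prior count 2) were compared by exact permutation of the genotype labels. The procedure was checked on simulated counts. Alternatives were RLE and total count scaling, no low count filter, a prior count of 0.5, DESeq2 1.42.0, limma-voom and limma 3.58.1 on log2 RPKM, the edgeR exact test, labelled sex as a covariate, the replicate number as a block and leaving out libraries. The fit without MD1 male replicate 3 and MD1 female replicate 4 was added after seeing the data.

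Named genes were the 9 genes, Smchd1, the genes past the threshold and the highest and lowest fold change in each pathway list, the most similar gene to each of the 9 and genes overlapping them. The 9 genes and all lists were chosen with earlier results of these data known. Promoters are from RefSeq (14 entries for the 9 genes, the first per gene used), and exons from GENCODE release M21.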

Additional observations from a re-analysis of the deposited data

Results flagged for a closer look

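Among 64 sets of libraries of 1 genotype, for 32 named genes, 11 had a highest or lowest library far from the rest by Dixon's test at the 95% level (critical ratio 0.829 for 4 MD1 libraries and 0.625 for 6 WT libraries), where chance gives about 1 in 20 for sets not chosen by their values. Many of these genes were named for an extreme fold change or after their values were seen, so that rate does not apply to them. None of the 18 sets of the 9 silencing genes was among them. Of the 11, MD1 female replicate 4 stood apart among MD1 for Kdm3a (874 CPM), Kdm7a (388 CPM), Kdm4c (66.7 CPM), H3f3b (1301 CPM), Cdyl (50.9 CPM), Mbd2 (45.6 CPM) and Pml (15.9 CPM), high for all but Pml. Among WT, male replicate 1 stood apart for Kdm3a (247 CPM), Kdm7a (157 CPM) and Trim66 (7.53 CPM), all high, and WT male replicate 3 for Morc4 (18.5 CPM). Hypoxia response genes had a mean log2 level 3.74 above WT in the first of these libraries, MD1 female replicate 4, 1.29 above it in the one labelled MD1 female replicate 1 and 1.35 above it in WT male replicate 1, and their part in these values was not tested.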

How the results depend on the processing

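Of 442 comparisons of 29 results with other settings, 390 were rated the same. For a fold change or ratio this meant the same direction and side of the threshold, and for a count of genes an equal or similar count. The count of silencing genes called on autosomes was 0 of 8 in every setting. The count of all autosomal genes called (12) was 51 with DESeq2, 29 with the edgeR exact test, 4 with limma on log2 RPKM, 6 without both libraries labelled MD1 female and 4 to 13 when 1 library was left out. Over all chromosomes (11 called) it was 51, 28, 4, 4 and 4 to 13 in the same order. With the replicate number as a block both counts were 0, with 362 autosomal genes at an unadjusted p under 0.05. Same-numbered MD1 and WT libraries deviated with correlations between -0.0402 and 0.0776, and in 0 of 4 was the own number the best match, so the numbers were not treated as pairing.

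Without both libraries labelled MD1 female the sign turned for Trim28 (0.0616), Setdb1 (0.0249), Morc2a (0.0281) and Morc3 (-0.0195). With 1 library left out, Morc3 ranged between -0.0187 (without MD1 female replicate 4) and 0.167, and Trim28 within males between -0.0196 (without MD1 male replicate 3) and 0.128. Suv39h2 (0.01) turned to -0.0252 with total count scaling, -0.000681 with no filter, -0.0175 with limma-voom, -0.0765 with limma on log2 RPKM and -0.000596 with the replicate block. With 1 library left out it ranged between -0.0676 and 0.0913, and was below 0 without WT male replicate 3, without MD1 male replicate 2, without MD1 male replicate 3 and without WT female replicate 4. Suv39h1 ranged likewise between -0.0391 and 0.00198 (above 0 without WT male replicate 2), and within females between -0.0232 and 0.0464, below 0 when WT female replicate 4 or 6 or MD1 female replicate 4 was absent. The difference in the ratio of Ehmt1 to Ehmt2 ranged between -0.0110 and 0.0703, and that of Suv39h1 to Suv39h2 between -0.116 and 0.0345. Both turned without MD1 male replicate 2, and the second also without MD1 male replicate 3. Silencing genes called within females ranged between 0 and 4, and for the difference between sexes between 0 and 2, each highest once the library labelled MD1 female replicate 1 was left out. The causes were not tested. Depth limits Daxx and Morc3 most, with as few as 233 and 195 counts in the shallowest library.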
